A study of Mus musculus with 6 samples.

Results

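DNA replication genes are the genes whose products copy the genome during S phase. The set examined here held 42 named genes, listed by function, with no threshold on their values. Every probe set of the array whose platform symbol was exactly one of these names was taken. This gave 94 probe sets for 41 genes, of 18193 genes with a probe set of 1 symbol, and all 41 had at least 1 probe set bright enough to test. Chaf1a, a histone chaperone subunit, matched no probe set and was not analysed here. Mitotic genes were kept as a separate list.

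The samples were sorted cells of the ventral mesencephalon, taken from mouse embryos at embryonic day 12.5, with 1 microarray per sample and 3 biological replicates per group. The first group was GFP-positive cells of Ngn2-GFP mice on a CD1/129 background, labelled midbrain dopaminergic progenitors and called positive cells below. In that line GFP reports Neurog2, a proneural gene that is switched on as progenitors leave the cycle to become neurons. The second was GFP-negative cells of Lmx1a-GFP mice on a C57BL/6 background, labelled a non-dopaminergic progenitor population and called negative cells below. Lmx1a is a transcription factor that dopaminergic progenitors need, and a gate on absent GFP selects for no cell type of its own. Each group had its own reporter line, strain and gate, and effects of these cannot be told apart from one another. The labels do not say how many embryos made up a sample.

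Replication begins when the origin recognition complex, Cdc6 and Cdt1 load a ring of 6 MCM proteins onto DNA. Cdc45 and the GINS proteins turn that ring into a moving helicase, and primase, polymerases, the sliding clamp PCNA and its loader RFC then copy both strands. Transcripts of most of these genes are made under control of E2F factors as cells pass from G1 into S phase, so in embryonic neural tissue they mark cycling progenitors and decline in newborn neurons. Per array they reflect both the share of cycling cells and the RNA per cell, which cannot be told apart in sorted bulk samples.

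Values are MAS5 signals, a linear brightness per probe set. Differences are log2 fold changes, positive minus negative, from 1 limma fit over 12044 genes with its standard error (SE), n = 3 arrays per group, and p-values adjusted by the Benjamini-Hochberg method over all those genes. The number of arrays limits the precision. Each gene is represented by its brightest tested probe set. Signals of different probe sets are not on one scale. Brightness served to leave out dim probe sets, to pick the one for each gene and to pick which genes are shown.

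Median signal was 18.2 to 25.5 on the 6 arrays. Hybridization spike-in controls averaged 2293 and 2351.5 on positive replicates 1 and 2. These stood apart from the remaining positive array, at 5018, and from the 3 negative ones, which lay between 4254 and 6560, and the same 2 arrays had lower 18S rRNA signals (3713 and 3696, against 7241 to 9276 for the other 4 arrays). Their ratios of 3' to 5' Gapdh signal, a sign of RNA quality, were 4.41 and 4.73, against 5.94 to 9.21 for the other 4. The part of this split in the results was not tested, and genes whose difference moved by more than 1 within-group SD with it as a block are given with that value. That fit compares positive replicate 3 alone with the negative arrays. Of the markers of the tissue, the floor plate and midbrain genes Foxa2 and En1 were above the filter level on all 6 arrays. All 9 tested dopaminergic lineage genes had differences above 0. Of these, 6 were called higher in positive cells at an adjusted p under 0.05 in the limma fit, against 0.423% of all genes.

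None of the 41 replication genes differed between positive and negative cells at an adjusted p under 0.05. The lowest adjusted p was 0.202, for Mcm2. Over all 12044 genes 1.06% passed, 0.423% higher and 0.639% lower in positive cells, so a set of this size would hold few calls at the background rate. At an unadjusted p under 0.05 there was 1 replication gene, 2.44% of the set, against 10.8% of all genes. The 3 values of one group lay entirely on one side of the other group's for 1 replication gene, again Mcm2, against 15.5% of all genes, of which 8.21% had the positive values above and 7.25% below. The differences were spread about 0, with 19 above and 22 below. Their median was -0.03 and their quartiles were -0.29 and 0.19, beside a median of 0.03 and quartiles of -0.27 and 0.32 over all tested genes.

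**Figure D1:**
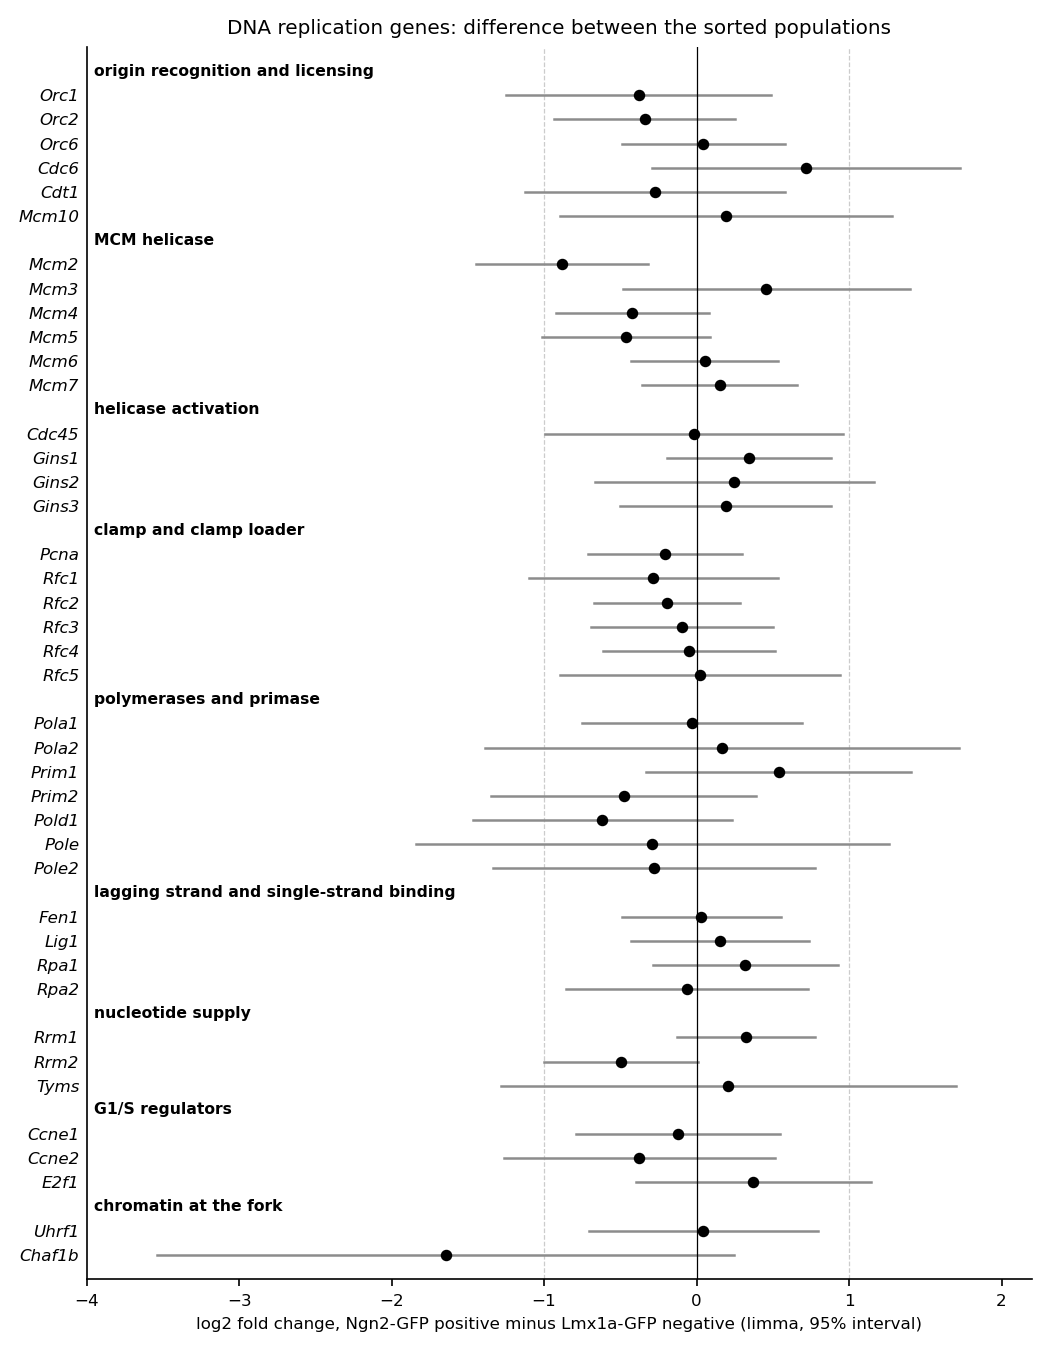
Log2 fold change, positive minus negative (x axis), of the 41 measured replication genes, ordered by role (y axis), as points with 95% intervals from the limma fit; dashed lines mark a 2-fold difference. The intervals of 40 genes include 0 and that of Mcm2 lies below it.

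A difference that misses the threshold is not shown to be absent, so the intervals were examined. The 95% interval of the difference lay within 2-fold either way for 22 of 41 genes and reached past 2-fold for 19. It lay within 1.5-fold for 3 genes, Fen1, Mcm6 and Orc6, and within 4-fold for every gene but Chaf1b. Among all tested genes 47.7% had intervals within 2-fold, against 53.7% of the replication genes. These intervals are those of the brightest probe set of each gene and are not adjusted for the number of genes. Other tested probe sets of Fen1 and Mcm6 had log2 differences of -0.79 and 0.35, and Orc6 had no other.

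The origin recognition and licensing genes were taken first. Orc6, a subunit of the origin recognition complex, had signals of 220, 256 and 285 on the positive arrays, against 236, 186 and 332 on the negative arrays. The positive values lay inside the range of the negative ones, and the difference was 0.04 (SE 0.25). Orc2, of the same complex, ran from 152 to 249.6 in positive and from 172 to 315 in negative cells, a difference of -0.34 (SE 0.27). Its other tested probe sets were at 0.28, with all positive values above all negative ones, and at -0.13, so the gene had no single direction. Orc1, which recruits Cdc6, ran from 23.6 to 32.7 in positive and from 31.6 to 49.98 in negative cells (-0.38, SE 0.40).

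Cdc6, an ATPase that loads the MCM ring, had signals of 67.9, 64.3 and 36.0 in positive cells, against 52.0, 40.6 and 16.8 in negative cells. Its difference, 0.72 (SE 0.47, adjusted p = 0.596), was the highest of the set, and the groups overlapped. With the spike-in split as a block it was 0.14. Cdt1, the partner of Cdc6 in loading, ran from 56.3 to 105 in positive and from 62.1 to 179.6 in negative cells (-0.27, SE 0.39), and without negative replicate 2, the array with the highest value, its difference was 0.18. Mcm10, which acts after loading to start the forks, ran from 16.4 to 33.7 in positive and from 16.9 to 24.3 in negative cells (0.19, SE 0.50).

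The 6 MCM helicase genes encode the subunits of 1 ring, in which each protein is present once. On the brightest probe sets 3 of their differences lay above 0 and 3 below, and the sign of every one but Mcm2 turned under at least 1 alternative setting. Mcm2 had signals of 59.2, 66.5 and 74.4 on the positive arrays, against 118, 116 and 135 on the negative arrays. All 3 positive values were under all 3 negative ones, and the difference was -0.88 (SE 0.26, adjusted p = 0.202), with a 95% interval of -1.45 to -0.32. With the spike-in split as a block it was -0.72. A second probe set for Mcm2 had signals of 62.6, 49.2 and 33.1 in positive and 50.3, 49.7 and 45.5 in negative cells, a difference of -0.05. So the separation of the groups was seen in 1 of the 2 Mcm2 probe sets.

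Mcm7 had signals of 853, 984 and 683 in positive cells, against 602, 708 and 983 in negative cells. The groups overlapped and the difference was 0.15 (SE 0.23). All 4 of its probe sets were tested, and their differences lay close together, from 0.10 to 0.27, though the brightest was at -0.13 with the spike-in split as a block. Mcm6 ran from 575 to 825 in positive and from 509.99 to 713 in negative cells (0.05, SE 0.22), and was at 0.39 with that block.

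Mcm4 ran from 331 to 455 in positive and from 433 to 704 in negative cells (-0.42, SE 0.23), and Mcm3 from 123 to 227 in positive and from 49.8 to 194 in negative cells (0.46, SE 0.43). Other probe sets ran the other way, at 0.33 for Mcm4 and at -0.74 for Mcm3, the last with the positive values below all the negative ones (adjusted p = 0.454 with each probe set tested on its own). Mcm5 had signals of 288, 245 and 491 in positive cells, against 419.7, 482 and 449 in negative cells. Positive replicates 1 and 2 were under all the negative values and positive replicate 3 was above them, for a difference of -0.46 (SE 0.26). Without positive replicate 3 the difference was -0.76 (adjusted p = 0.079), still short of the threshold in a fit where 3.55% of genes passed and where group and spike-in level coincide. With the spike-in split as a block it was 0.13.

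A second Mcm5 probe set ran the other way, with signals of 51.1, 67.5 and 58.4 in positive cells, against 23.7, 7.95 and 29.2 in negative cells. On this probe set all positive values were above all negative ones, a difference of 1.73 (SE 0.51, adjusted p = 0.237 with each probe set tested on its own). The 2 Mcm5 probe sets thus gave no single direction for the gene.

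**Figure D2:**
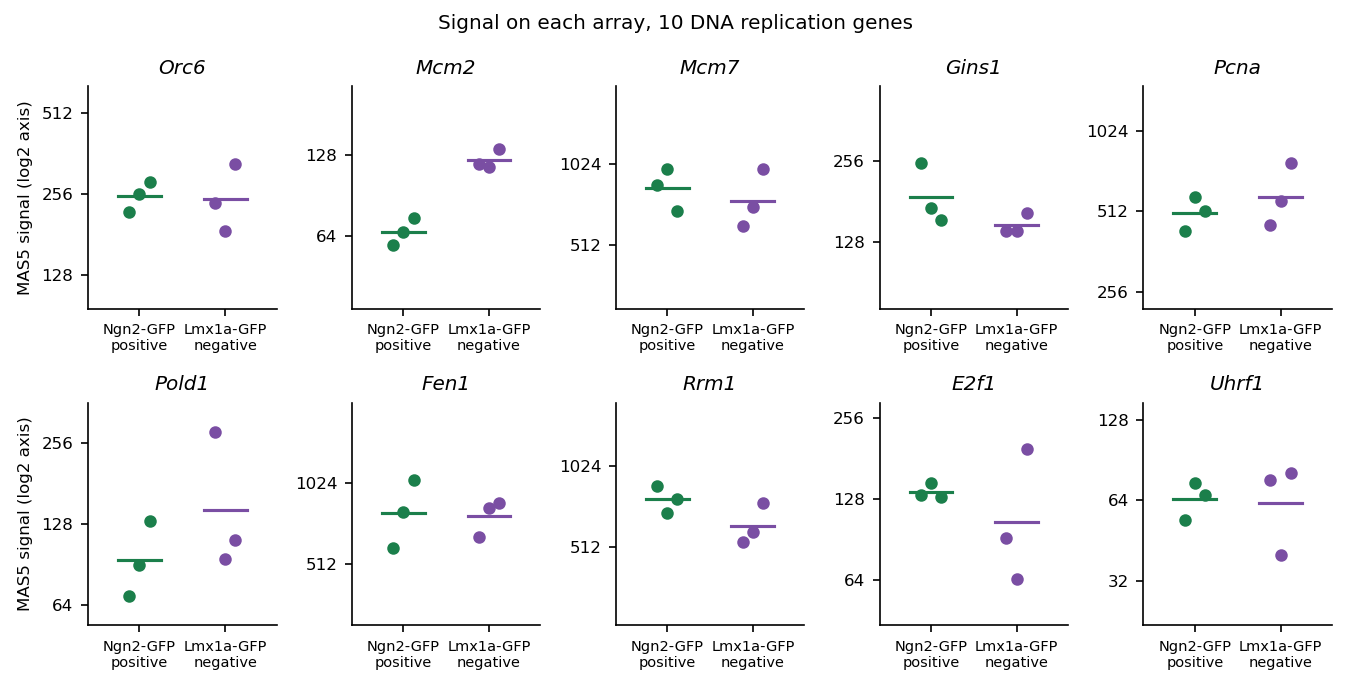
MAS5 signal (y axis, log2 scale) on the 3 positive (left, green) and 3 negative (right, purple) arrays for Mcm2, the gene whose groups do not overlap, and the brightest tested gene of each role; points are arrays and bars are geometric means. Only the Mcm2 panel shows groups that do not overlap.

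Sequence upstream of the genes was examined as a feature that the choice of genes did not use. RefSeq promoter windows of 300 bases, from 250 before to 50 after a gene's start on GRCm38.p6, were found for 35 of the 42 genes. Each was searched on both strands for 4 forms of the E2F recognition sequence, TTTCCCGC, TTTCGCGC, TTTGGCGC and TTTGCCGC. At least 1 form was present in 14 of 35 genes (40%), against 4.78% of 9741 genes tested on these arrays with a window and 2.6% of all 27025 genes with one. By window these shares were 34.1% of 41, against 3.92% of 12564 and 2.26% of 32851, and windows of 1 gene can overlap. The median G and C content was 60% in the windows of the replication genes and 60.7% in those of the tested genes. TTTGCCGC was found in none of the 35.

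The 14 genes were Mcm3, Mcm5, Mcm6, Mcm7, Orc1, Cdc6, Cdt1, Gins3, Rfc3, Pold1, Pole2, Pola1, Lig1 and Uhrf1. Of a further 42 replication and S phase genes with a window 17 held a form (40.5%), and of 29 mitotic genes 1 did (3.45%). The CCAAT box, searched in the same way, was present in 22 of 35 replication genes (62.9%), 21 of 29 mitotic genes (72.4%) and 43.2% of the tested genes. A match of letters does not show that a factor is bound there, and a window without a match does not show that none is. The differences in expression of the 14 genes with a form had a median of 0.01 and ranged from -0.62 to 0.72, and those of the 20 measured genes without one had a median of 0.00 and ranged from -1.65 to 0.54.

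The windows of the 4 MCM genes that hold a form are printed because they show 1 family of subunits with repeated and overlapping matches. The window of Mcm2 and another window of Mcm7 held no form, and Mcm4 had no window and was not searched. Capitals mark the matched forms on either strand, and each window reads along the strand given. Mcm3 lies at chr1:20820263-20820562 (minus strand), Mcm5 at chr8:75109259-75109558 (plus strand), Mcm6 at chr1:128359656-128359955 (minus strand) and Mcm7 at chr5:138171834-138172133 (minus strand). In Mcm5 and Mcm6 a pair of forms on opposite strands overlap in a run of 12 bases. The run of Mcm5, TTTCGCGCCAAA, is the reverse complement of that of Mcm6, TTTGGCGCGAAA, and 4 of all 32851 windows hold it.
Mcm3: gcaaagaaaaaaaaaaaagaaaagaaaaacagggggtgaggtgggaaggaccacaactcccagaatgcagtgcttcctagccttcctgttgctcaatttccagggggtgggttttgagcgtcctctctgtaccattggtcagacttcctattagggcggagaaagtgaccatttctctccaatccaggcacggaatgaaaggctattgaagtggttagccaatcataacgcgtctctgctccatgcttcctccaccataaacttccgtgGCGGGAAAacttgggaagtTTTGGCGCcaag
Mcm5: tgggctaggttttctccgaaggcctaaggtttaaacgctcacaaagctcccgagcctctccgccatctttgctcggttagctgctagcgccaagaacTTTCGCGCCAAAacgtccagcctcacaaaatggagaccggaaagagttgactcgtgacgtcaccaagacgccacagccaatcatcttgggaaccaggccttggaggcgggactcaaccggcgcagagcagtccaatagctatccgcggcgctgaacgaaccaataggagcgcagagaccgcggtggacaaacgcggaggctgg
Mcm6: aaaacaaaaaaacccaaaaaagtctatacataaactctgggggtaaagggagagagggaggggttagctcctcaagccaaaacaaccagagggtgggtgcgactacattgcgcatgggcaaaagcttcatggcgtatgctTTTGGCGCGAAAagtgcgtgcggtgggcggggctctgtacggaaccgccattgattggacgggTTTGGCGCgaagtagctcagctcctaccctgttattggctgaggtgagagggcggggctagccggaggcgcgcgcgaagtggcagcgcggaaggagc
Mcm7: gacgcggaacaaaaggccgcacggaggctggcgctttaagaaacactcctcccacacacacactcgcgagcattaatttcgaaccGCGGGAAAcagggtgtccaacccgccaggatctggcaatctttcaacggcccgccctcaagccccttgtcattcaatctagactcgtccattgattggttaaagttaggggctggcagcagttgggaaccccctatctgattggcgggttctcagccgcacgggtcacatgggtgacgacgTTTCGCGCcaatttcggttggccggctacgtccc

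Of the genes that turn the loaded ring into a helicase, Gins1, a subunit of the 4-part GINS complex, had signals of 252, 171 and 154 in positive cells, against 140, 141 and 164 in negative cells. Positive replicates 1 and 2 were above all negative values and positive replicate 3 lay among them, for a difference of 0.35 (SE 0.25). With the spike-in split as a block it was 0.06. Gins2 ran from 25.5 to 45.3 in positive and from 22.8 to 39.0 in negative cells (0.25, SE 0.42; -0.28 with that block), and Gins3 from 47.5 to 65.1 in positive and from 44.4 to 51.3 in negative cells (0.19, SE 0.32). Cdc45, the third component of the active helicase, ran from 21.9 to 37.7 in positive and from 21.5 to 46.8 in negative cells, a difference of -0.02 (SE 0.45). The other tested probe sets of Gins2 and Gins3 had differences of -1.92 and -1.01.

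The sliding clamp Pcna, which holds polymerases on DNA, had signals of 432, 579 and 513 in positive cells, against 454, 559.6 and 775 in negative cells. The groups overlapped and the difference was -0.21 (SE 0.23). The 5 subunits of its loader had differences of -0.28 for Rfc1 (SE 0.38), -0.19 for Rfc2 (SE 0.22), -0.10 for Rfc3 (SE 0.28), -0.05 for Rfc4 (SE 0.26) and 0.02 for Rfc5 (SE 0.42). That of Rfc4 was 0.33 with the spike-in split as a block. Rfc2 ran from 369.7 to 493 in positive and from 412 to 614 in negative cells. Rfc5 ran from 66.4 to 131 in positive and from 46.2 to 163 in negative cells, so its difference near 0 came with a wide spread in both groups.

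Among polymerases and primase, Pold1, the catalytic subunit of polymerase delta, had signals of 69.2, 90.4 and 132 in positive cells, against 283, 94.7 and 111 in negative cells. Negative replicate 1 stood above the other 5 arrays, and the difference was -0.62 (SE 0.39). Prim1, the catalytic subunit of primase, ran from 107 to 158 in positive and from 48.9 to 185 in negative cells (0.54, SE 0.40). Prim2, the regulatory subunit of primase, ran from 30.7 to 71.0 in positive and from 48.1 to 96.2 in negative cells (-0.48, SE 0.40). The other tested probe set of Prim1 was at -0.03, so the partners of the 2-part primase had no settled order. With the spike-in split as a block, Prim2 was at -1.26 and had the lowest adjusted p of the set (0.623), in a fit where 0.282% of all genes and none of the replication genes passed.

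Pola1, the catalytic subunit of polymerase alpha, ran from 42.7 to 55.9 in positive and from 43.2 to 57.8 in negative cells (-0.03, SE 0.33), and was at 0.20 with that block. Its accessory subunit Pola2 was above the filter level on 1 positive and 2 negative arrays, with signals of 9.58 to 18.4 in positive and 5.19 to 18.025 in negative cells (0.17, SE 0.72). Pole, the catalytic subunit of polymerase epsilon, was above that level on 2 arrays of each group, with signals of 5.43 to 16.8 in positive and 8.38 to 20.5 in negative cells (-0.29, SE 0.72). Pole2, its second subunit, ran from 18.9 to 19.9 in positive and from 16.5 to 30.4 in negative cells (-0.28, SE 0.49). The 95% intervals of Pola2, Pole and Pole2 reached past 2-fold.

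Among the genes that finish the lagging strand, Fen1, the nuclease that trims Okazaki fragments, had signals of 586, 796 and 1055 in positive cells, against 645, 828 and 863 in negative cells. All 3 negative values lay inside the range of the positive ones, and the difference was 0.03 (SE 0.24), or 0.45 with the spike-in split as a block. Lig1, the ligase that seals the fragments, ran from 226 to 317 in positive and from 168 to 342 in negative cells (0.15, SE 0.27). Rpa1 and Rpa2, which coat single-stranded DNA, differed by 0.32 (SE 0.28) and -0.06 (SE 0.37). With the spike-in split as a block, Rpa1 was at 0.80.

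In the supply of nucleotides, Rrm1, the large subunit of ribonucleotide reductase, had signals of 867, 684 and 769.9 in positive cells, against 534, 580.2 and 748 in negative cells. Positive replicates 1 and 3 were above all negative values and positive replicate 2 was not, for a difference of 0.33 (SE 0.21). Rrm2, the small subunit, whose level limits the enzyme in S phase, had signals of 357, 397 and 344 in positive cells, against 373, 569 and 645 in negative cells. Its difference was -0.50 (SE 0.23, adjusted p = 0.472). Of its 3 probe sets, the brightest gave -0.50 and the others -0.43 and 1.01, so the subunits of this enzyme could not be ordered from these arrays. Tyms, which makes thymidylate, was above the filter level on 2 arrays of each group, with signals of 7.81 to 25.4 in positive and 8.11 to 27.03 in negative cells (0.21, SE 0.69), and was at -0.90 with the spike-in split as a block.

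Of the regulators of entry into S phase, E2f1, a transcription factor that activates replication genes, had signals of 133, 146 and 130.2 in positive cells, against 91.4, 64.5 and 197 in negative cells. The positive values lay close together and inside the wide range of the negative ones, and the difference was 0.37 (SE 0.35). Without negative replicate 3, the highest of these arrays, it was 0.83 (adjusted p = 0.268), and without negative replicate 2, the lowest, 0.02. Ccne1 and Ccne2, the E cyclins that activate Cdk2, differed by -0.12 (SE 0.31) and -0.38 (SE 0.41).

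Of the genes that act on chromatin at the fork, Uhrf1, which brings Dnmt1 to newly copied DNA, had signals of 54.2, 74.5 and 67.0 in positive cells, against 75.9, 40.03 and 81.1 in negative cells (0.05, SE 0.35). Chaf1b, a subunit of the CAF-1 histone chaperone, had the lowest difference of the set, -1.65 (SE 0.87, adjusted p = 0.514). Its signals were 2.49, 35.1 and 5.69 in positive cells, against 36.2, 18.01 and 23.2 in negative cells. It was above the filter level on 1 positive array and all 3 negative ones. With 32 added to each signal before taking log2, which damps dim signals, the difference was -0.37.

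The probe sets of single genes were then compared. Whether those of 1 gene read the same transcripts was not tested. The brightest probe sets of the MCM genes all had names ending in _s_at or _x_at. Without names ending in _s_at, _x_at or _a_at, 35 replication genes were tested and none passed, with a median difference of -0.02. There Mcm2 was at -0.05, Mcm3 at -0.74, Mcm4 at 0.33, Mcm5 at 1.73 and Mcm6 at 0.35, and Mcm7 had no probe set left. Of the 27 replication genes with more than 1 tested probe set, 15 had probe sets on both sides of 0 (55.6%), a share close to that over all such genes (55.4% of 6177). The widest gaps were those of Mcm5, Gins2 and Rrm2. With each of the 76 tested probe sets counted on its own none passed, against 0.647% of 23173 probe sets. The groups did not overlap on 6 probe sets (7.89%), of Mcm2, Mcm3, Mcm5, Orc2, Rfc2 and Gins3, against 14.5% of all. For Mcm2 this held on the brightest probe set and for the other 5 genes on a dimmer one.

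**Figure D3:**
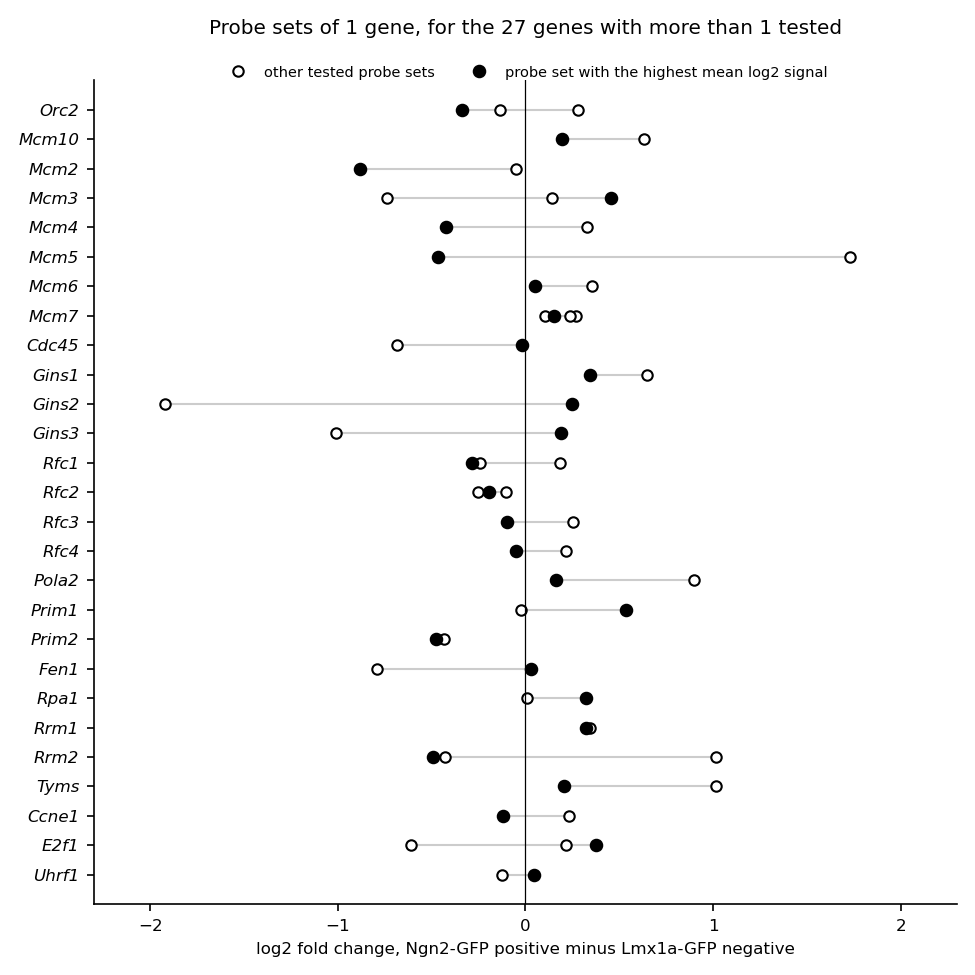
Log2 fold change, positive minus negative (x axis), of every tested probe set of the 27 replication genes with more than 1 (y axis); filled points are the brightest probe set, open points the others. Points lie on both sides of 0 for 15 genes, with Mcm5 reaching from -0.46 to 1.73.

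Spread between replicates was of the same order as for other genes. The median within-group SD of log2 signal was 0.40 for the replication genes and 0.38 for all tested genes. It was 0.34 in positive and 0.44 in negative cells for the replication genes, beside 0.32 in positive and 0.36 in negative cells for all genes. Within the negative group, replicate 3 was above the mean of its fellows for 25 of 41 replication genes (61% against 52.6% of all genes), by a median of 0.22, and replicate 1 was below for 27 of 41, by a median of -0.17. Within the positive group no array had more than 23 of 41 genes on one side. Each positive array, set against the mean of the negative arrays, had 19 replication genes above and 22 below, with medians of -0.07, -0.03 and -0.07 in replicates 1, 2 and 3.

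The replication genes were set beside other genes of the cycle. Of 49 further tested genes of replication and S phase none passed, 28 lay above 0, and the median difference was 0.09. The brightest of them was Dnmt1, the methyltransferase that copies methylation onto new DNA, at -0.42 (SE 0.29), with 702, 894 and 1501 in positive cells, against 978, 1771 and 1298 in negative cells. Of 34 tested mitotic genes none passed, 23 lay above 0, and the median was 0.22. The brightest was Cdca8, a subunit of the chromosomal passenger complex, at -0.15 (SE 0.24). For positive replicates 1, 2 and 3 against the negative mean, the mitotic median was 0.23, 0.23 and -0.05. It also moved with single arrays, to 0.02 without negative replicate 2, 0.06 without positive replicate 2 and 0.33 without negative replicate 3. No test was made of the difference between the lists.

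**Figure D4:**
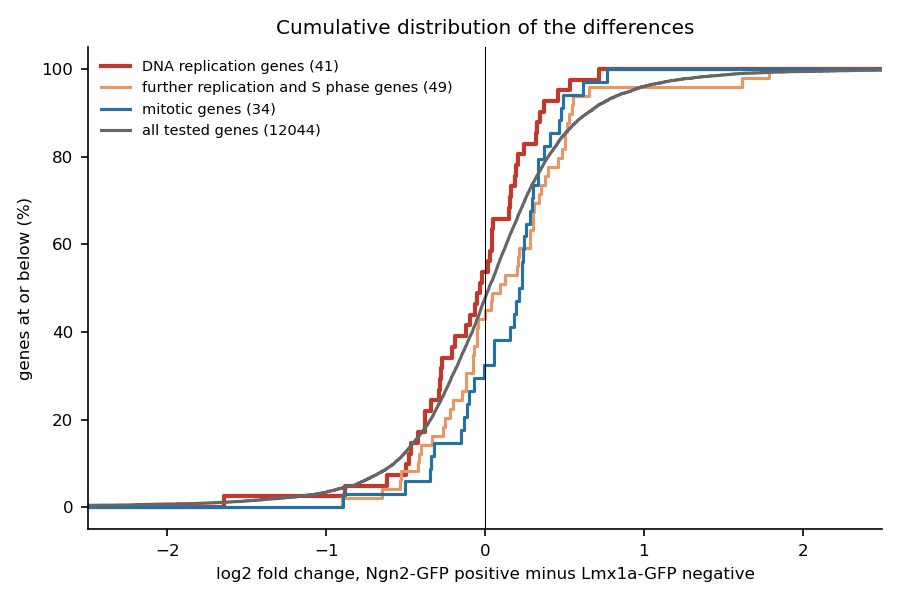
Share of genes (y axis, percent) with a log2 fold change, positive minus negative, at or below the value on the x axis, for the 41 replication, 49 further replication and 34 mitotic genes and for all 12044 tested genes; all genes extend beyond the range drawn. The replication curve crosses its midpoint at -0.03 and the mitotic curve at 0.22.

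Summed signals of several cell type marker lists, that of radial glia and progenitors among them, stood apart between the groups. A sum adds probe sets that are not on one scale, so it mostly follows the brightest genes of its list. On negative replicate 1, Hbb-y made up 9974 of the erythroid sum of 12875. Calls below are at an adjusted p under 0.05 in the limma fit, where 0.639% of all genes were called lower in positive cells. Signals summed over 9 erythroid genes on the array were 328 to 635 on the positive and 7514 to 14936 on the negative arrays. All 5 tested members were called lower in positive cells. Those of 10 macrophage genes were 26.6 to 56.9 on the positive and 380.5 to 816 on the negative arrays. Of 5 tested members 4 were called lower, and none had a difference above 0. Those of 12 radial glia and progenitor genes were 5617 to 8888 on the positive and 9795 to 12589 on the negative arrays. Of these 12 genes 2 were called lower, and 2 had a difference above 0. Signals of 12 neuronal genes summed to 16790 to 24054 on the positive and 20245 to 24719 on the negative arrays, with none called. Those of 8 GABAergic lineage genes were 2457 to 2682 on the positive and 5930 to 6191 on the negative arrays. Of these 8 genes 6 were called lower, and none had a difference above 0. Endothelial and mesenchymal genes summed to 115 to 155 on the positive and 97.5 to 134 on the negative arrays, with none of 4 tested members called. Among the endothelial genes Cdh5 and Pecam1 were at 10.3 or less on every array. Kdr was at 11.8, 24.2 and 27.1 on the positive arrays, against 7.96, 0.338 and 6.6 on the negative arrays. Cldn5 was at 9.84, 1.78 and 4.72 on the positive arrays, against 14.2, 5.86 and 9.05 on the negative arrays. None of these endothelial genes passed the filter, so none was tested. The summed signal of the 41 replication genes was 7746, 8098 and 8662 on the positive arrays, against 7340, 8688.5 and 9457 on the negative arrays, and these ranges overlapped. Embryonic red cell precursors, macrophages and radial glia can all divide, and their part in the replication signal of either group was not tested.

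**Figure D5:**
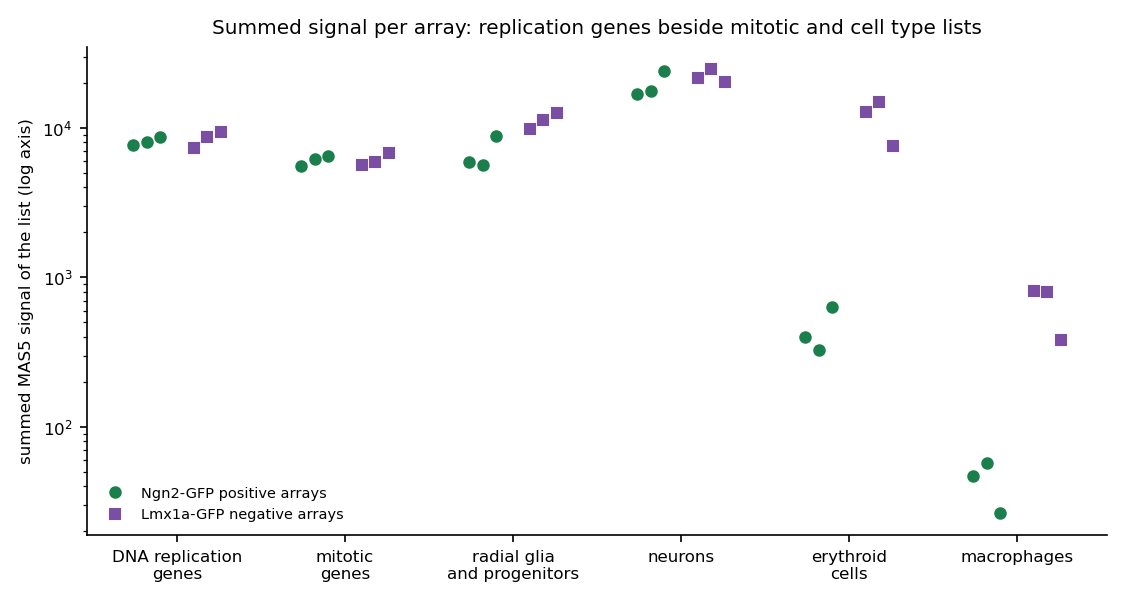
Summed MAS5 signal per array (y axis, log scale) of the replication and mitotic genes and of 4 cell type marker lists (x axis); green circles are the 3 positive and purple squares the 3 negative arrays. The groups overlap for replication, mitotic and neuronal genes and are apart for radial glia, erythroid and macrophage genes.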

How the data were processed

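Total RNA of each sorted sample was labelled as biotinylated cRNA and put on 1 array, per the labels' protocols. The authors deposited 1 intensity per probe set and array on a linear scale, with MAS5, limma and R 2.14.2 named in the submitters' processing notes. All arrays had a 2% trimmed mean of 100, and a change in total RNA per cell is therefore not seen.

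Probe sets were named from the platform annotation, using those with 1 symbol. Signals were floored at 1 and turned to log2, with no new scaling. The filter kept probe sets whose signal was above the 40th percentile on 3 or more arrays, and the brightest one by mean log2 signal stood for its gene. The two-sided test was that of limma 3.58.1 under R 4.3.3, using lmFit and eBayes with trend, on 4 residual degrees of freedom. Adjustment followed Benjamini and Hochberg across the 12044 genes, at a threshold of 0.05. On simulated arrays with known changes the fit found most changes of 4-fold or more and missed most of 2-fold, and the share of false calls ran above the threshold, so counts of called genes may be too high and smaller differences can go uncalled.

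The genes, role classes and lists were chosen with earlier results of these data known. Signals on every array are given for genes past the threshold, genes whose groups do not overlap and the brightest gene of each role. All signals of Cdc6, Mcm5, Rrm2, Chaf1b, Dnmt1, Kdr, Cldn5 and second probe sets of Mcm2 and Mcm5 were added after their values were seen. Lists are described by counts and medians without a test. E2F and CCAAT letters were searched in RefSeq promoter windows. Plots used Python 3.11.15 and matplotlib 3.10.9. Alternatives covered scaling, filter, log offset, variance model, choice of probe set, replicate number, spike-in level and single arrays.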

Additional observations from a re-analysis of the deposited data

How the results depend on the processing

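No replication gene passed the threshold under any of the 18 alternatives, and the same held for the further replication genes and the mitotic genes. The count over all genes, 128 in the fit reported, was 19 without the filter on dim probe sets, 42 without the mean-variance trend, 34 with the spike-in level as a block, 40 on the 4 arrays of the higher spike-in level and 57 to 417 with 1 array left out, the highest without positive replicate 3. The median difference of the replication genes, -0.03, ran from -0.117 (without positive replicate 3) to -0.015 with 1 array left out, and was -0.07 with the spike-in block. The sign was the same in every alternative for 13 of 41 genes, Mcm2 among them. It changed in at least 1 for 28, so the sign of those is not settled. Nor is it settled for all of the 13, since the alternatives did not read every probe set singly. Orc2 is also among the 13, though another of its probe sets was at 0.28. Of 719 values of single genes under an alternative, 36 moved by more than 1 within-group SD. Some alternatives, such as the variance model and the replicate block, cannot change a gene's difference in this design. They are counted in the 719, so the share that moved is lower for including them.

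Same-numbered arrays of the groups had deviations from their group means that correlated at 0.139, -0.0964 and 0.0318, and not every array correlated best with its own number, so the numbers were not taken as pairs. With the replicate number as a block 127 genes passed, 0 of them replication genes, further replication genes or mitotic genes, and the replication median was -0.03.

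With 3 arrays per group, 19 of 41 genes had 95% intervals reaching past 2-fold, and their lack of a call says little. These included genes with dim probe sets, such as Pola2, Pole, Tyms and Chaf1b, and genes with brighter ones, such as Mcm3 and Mcm5.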

Other observations

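Some cycle genes outside the replication set were picked out after their values were seen and are given as values alone. Recql4, a helicase of origin firing, had signals of 23.4, 22.5 and 35.4 on the positive arrays, against 2.95, 14.6 and 15.1 on the negative arrays (log2 fold change 1.62, SE 0.72, adjusted p = 0.445 by limma). Wdhd1, which links polymerase alpha to the helicase, had 120.1, 135 and 115 on the positive arrays, against 94.0, 77.9 and 81.2 on the negative arrays (0.55, SE 0.25, adjusted p = 0.453). Aurkb, the kinase of the chromosomal passenger complex, had 34.6, 29.4 and 43.2 on the positive arrays, against 46.1, 91.6 and 66.4 on the negative arrays (-0.89, SE 0.37, adjusted p = 0.398). Recql4 was above the filter level on 2 of the 3 negative arrays. In each of these genes the groups did not overlap, and none passed the threshold over all genes. Such separation was found in 16.3% of the further replication genes, 8.82% of the mitotic genes and 15.5% of all genes. In the further list it had the positive values above for 5 genes and below for 3, and in the mitotic list above for 2 and below for 1.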
